A study of Mus musculus with 10 samples.

Results

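The *Hox* cluster genes were examined across 5 groups of mouse RNA-seq libraries. Members were chosen by name, as every listed gene called *Hox* with a cluster letter from *a* to *d* and a number, with antisense and opposite-strand genes excluded. This gave 39 genes of the 39273 in the deposited table, of which 11 lie in HoxA, 10 in HoxB, 9 in HoxC and 9 in HoxD. The 5 groups, with 2 libraries each, were ureteric bud (UB) organoids cultured for 5 days (D5), 10 days (D10) or 20 days (D20), collecting duct (CD) organoids, and adult CD cells. UB organoids were grown from E11.5 ureteric buds of *Wnt11*-RFP +/- embryos (C57BL/6 crossed to Swiss Webster), a line in which RFP reports the tip gene *Wnt11*. Their culture medium, mUBCM, holds the retinoid TTNPB beside FGF9, GDNF, R-Spondin1, CHIR99021 and further small molecules. CD organoids were made from UB organoids of day 10 by 7 days in a differentiation medium, CDDM, which holds aldosterone, vasopressin and FGF9 beside the inhibitors Y27632, DAPT and PD0325901. The adult cells were sorted by FACS as Venus+ cells from kidneys of *Hoxb7*-Venus mice of about 2 months, in which the promoter of one of the 39 genes, *Hoxb7*, drives the reporter. The sample labels of the adult libraries instead name an organoid of embryonic age with the *Wnt11*-RFP genotype, and the series' design text and the study's methods are followed here. The labels do not say whether the 2 libraries of a group came from separate cultures or animals, so the p-values below measure the spread between these libraries, which may be technical.

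*Hox* genes encode homeodomain transcription factors that give cells their position along the head-to-tail axis. In each cluster the genes stand in the order of their paralogue numbers, and genes of low number are in general used earlier and further forward in the embryo than those of high number. Genes of the same number in different clusters are paralogues with closely related DNA-binding domains, and the proteins bind DNA together with cofactors of the Pbx, Meis and Pknox families. In the kidney, *Hoxb7* is a long-used marker of the ureteric bud and the collecting duct, and the group 11 genes *Hoxa11*, *Hoxc11* and *Hoxd11* act in the metanephric mesenchyme that surrounds the bud.

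Total counts were between 22858971 and 24536676 in the D5 and D10 libraries and between 11913613 and 16759872 in the others, so that 3 counts, the limit of detection used here, stood for 0.109 to 0.241 CPM (counts scaled to a common library total). This limit and the count intervals below cover counting error only. The labelled cell types were checked with marker lists. The 5 tip markers were *Wnt11*, *Ret*, *Etv4*, *Etv5* and *Gfra1*. They summed to 2080 to 3790 CPM in UB organoids and to 75.1 to 130 CPM in CD organoids and adult cells. Within this sum, *Wnt11* went from 376 and 496 CPM in D5 to 192 and 109 in D10 and 19.2 and 22.7 in D20. *Ret* went the other way, from 610 and 702 CPM in D5 to 1360 and 1610 in D10 and 2100 and 2070 in D20. The 6 principal cell markers summed to 53.3 to 159 CPM in UB organoids, 961 and 1140 CPM in CD organoids, and 8110 and 8470 CPM in adult cells. In UB organoids most of this sum was *Scnn1g*, with 39.9 to 146 CPM. The 6 intercalated cell markers summed to at most 5.29 CPM in UB organoids, 1410 and 1310 in CD organoids, and 2100 and 2150 in adult cells. The adult libraries also held markers of other kidney cells: the 8 proximal tubule markers summed to 9000 and 11100 CPM there against 7.97 to 40.8 CPM in the organoids, the 3 loop of Henle markers to 3290 and 3490 CPM against at most 5.61 CPM, the 4 endothelial markers to 499 and 506 CPM against at most 2.45 CPM, the 3 distal convoluted tubule markers to 465 and 514 CPM against at most 14.4 CPM, the 5 urothelial markers to 65.0 and 56.3 CPM against at most 7.30 CPM, and the 3 podocyte markers to 296 and 351 CPM against at most 36.0 CPM. Summed RNA of 4 Y-linked genes was 0.0408 to 0.875 CPM in the D5 and D10 libraries and 230 to 295 CPM in the D20, CD organoid and adult libraries. The CD organoid libraries thus differed in this from the D10 libraries, although the study's methods derive CD organoids from day 10 UB organoids. The D20 libraries differed from the D10 libraries in the same way, so in comparisons of D10 with D20 or CD organoids the culture and the starting material cannot be told apart. In bulk libraries, fewer cells that use a gene and less RNA per cell cannot be told apart.

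The clusters lie on 4 chromosomes of GRCm38: HoxA at chr6:52155590-52260880 on the minus strand, HoxB at chr11:96194316-96368256, HoxC at chr15:102921103-103036852 and HoxD at chr2:74668310-74765142, the last 3 on the plus strand. Paralogue group 9 has a member in every cluster, and its members had very different levels here, so the homeoboxes of an abundant and a scarce member, *Hoxb9* and *Hoxc9*, are shown, as the stretches that paralogues share most closely. Each homeobox is 180 bases long and lies in the last coding exon, at chr11:96274659-96274838 in *Hoxb9* and chr15:102983930-102984109 in *Hoxc9* (GENCODE M21). The sequences run 5′ to 3′ on the coding strand, and capitals mark the bases that encode the conserved core of the DNA-recognition helix.
Hoxb9: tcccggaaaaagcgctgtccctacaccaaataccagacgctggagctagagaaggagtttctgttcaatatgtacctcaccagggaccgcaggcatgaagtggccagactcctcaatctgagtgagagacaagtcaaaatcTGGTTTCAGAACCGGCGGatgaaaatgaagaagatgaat
Hoxc9: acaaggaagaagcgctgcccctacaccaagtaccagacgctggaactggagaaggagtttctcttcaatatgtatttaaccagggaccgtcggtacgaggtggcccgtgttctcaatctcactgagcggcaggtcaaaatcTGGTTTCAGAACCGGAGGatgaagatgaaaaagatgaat
The 2 homeoboxes had the same base at 151 of 180 positions, which is 83.9%, and the longest stretch without a difference was 24 bases. The study's methods name an E/M counting step, which can share out reads that match several genes. Its effect on the values of these 2 genes was not tested.

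Compared per length, as RPKM, the genes of this group ranged from the top of the family to the limit of detection. *Hoxb9* had the highest RPKM of all 39 genes in every UB and CD organoid library, at 204 and 204 in D5, 212 and 189 in D10, 182 and 185 in D20, and 159 and 157 in CD organoids, and had 53.9 and 49.3 in adult cells. *Hoxd9* stood at 21.9 and 25.6 RPKM in D5, 6.29 and 19.8 in D10, 11.7 and 13.4 in D20, 16.7 and 17.7 in CD organoids, and 43.5 and 42.4 in adult cells. *Hoxa9* and *Hoxc9* did not exceed 0.152 RPKM in any organoid library. In adult cells they had 3.11 and 3.64 RPKM (*Hoxa9*) and 0.750 and 1.02 RPKM (*Hoxc9*). In the adult cells the levels of the 4 paralogues thus lay closer together than in the organoids, with *Hoxb9* lower and the other 3 higher than in CD organoids.

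Of the 39 genes, 21 were detected, with more than 3 counts in both libraries, in D5, 21 in D10, 21 in D20, 23 in CD organoids and 29 in adult cells. In HoxB, 8 or 9 of 10 were detected in every group, with *Hoxb9* as the member of highest number. In HoxD, the member of highest number was *Hoxd10* in the 4 organoid groups and *Hoxd11* in adult cells. In HoxA, it was *Hoxa5* in D5 and D10, *Hoxa7* in D20, and *Hoxa11* in CD organoids and adult cells. In HoxC, *Hoxc4* and *Hoxc5* were detected in D5, *Hoxc4*, *Hoxc8* and *Hoxc11* were detected in D10 with 4 to 19 counts, none was in D20 or CD organoids, and 5 were in adult cells, up to *Hoxc10*. *Hoxc12* and *Hoxd12* had no count in any library, which allows at most 0.109 to 0.241 CPM per library, and *Hoxa13*, *Hoxb13*, *Hoxc13* and *Hoxd13* had too few counts to be tested.

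**Figure D1:**
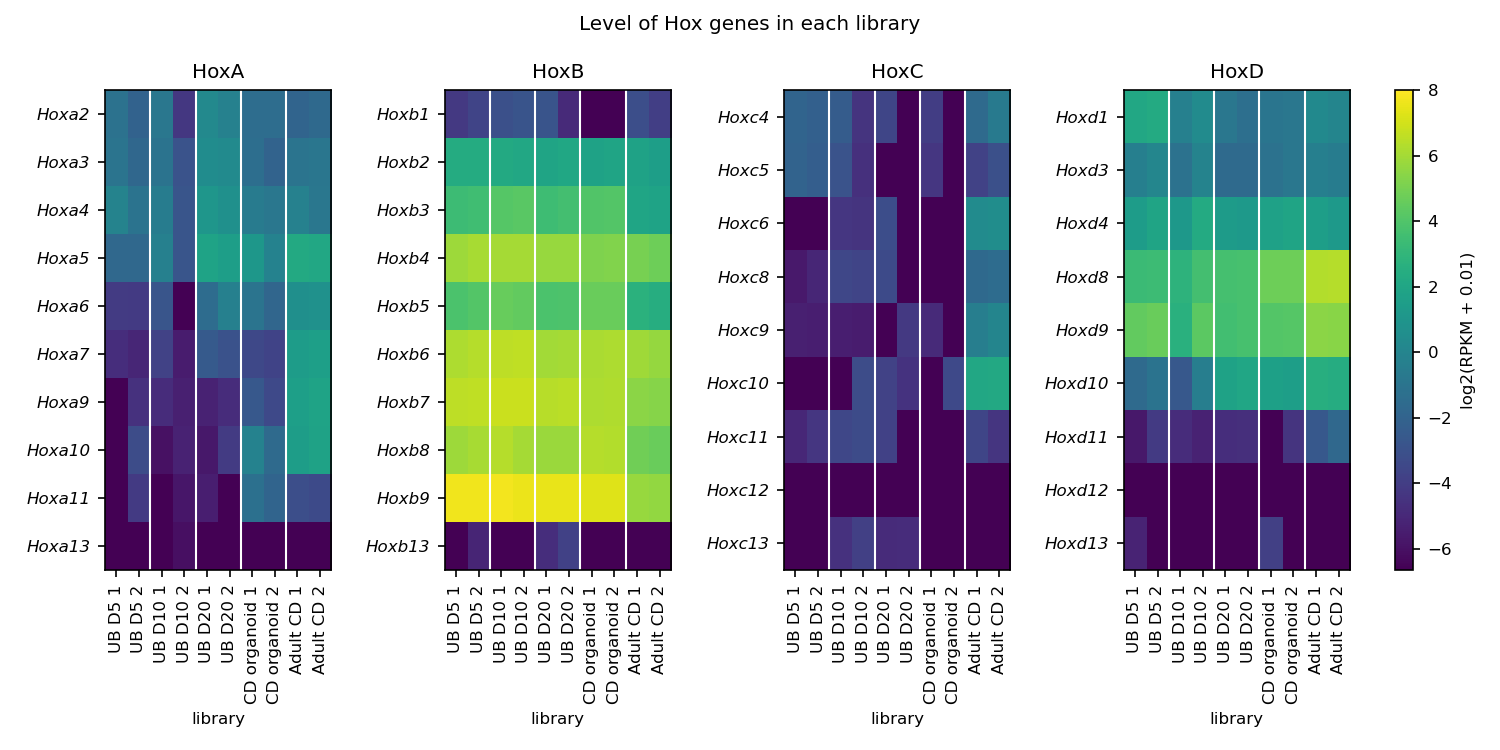
Level of the *Hox* genes (rows, by cluster and paralogue number) in each of the 10 libraries (columns), as log2(RPKM + 0.01), with white lines between groups. HoxB is bright from *Hoxb2* to *Hoxb9* in all libraries, *Hoxd8* and *Hoxd9* lead HoxD, and *Hoxa7*, *Hoxa9* and most of HoxC are brightest in the adult libraries.

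The summed RPKM of the 39 genes was 581 ± 30.9 in D5, 627 ± 10.7 in D10, 518 ± 9.93 in D20, 524 ± 0.171 in CD organoids and 378 ± 16.6 in adult cells (mean ± SD, n = 2, here and for the shares that follow). HoxB held 92.1% ± 0.255 of this sum in D5, 95.0% ± 2.41 in D10, 91.9% ± 0.0566 in D20 and 89.2% ± 0.156 in CD organoids. In adult cells its share was 57.8% ± 2.02, and that of HoxD was 35.6% ± 1.43. HoxD held 4.60% to 9.93% in the organoid groups. The shares of HoxA and HoxC were 4.55% ± 0.364 and 2.04% ± 0.230 in adult cells and at most 1.75% and 0.0884% in the organoid groups. The adult cells thus differed from all organoids by a smaller HoxB sum (219 ± 17.2 RPKM against 468 ± 0.663 in CD organoids) and larger sums of the other clusters (134 ± 0.497 against 52.1 ± 1.03 for HoxD, 17.2 ± 0.623 against 4.43 ± 1.84 for HoxA, and 7.69 ± 0.532 against 0.0999 ± 0.0225 for HoxC).

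**Figure D2:**
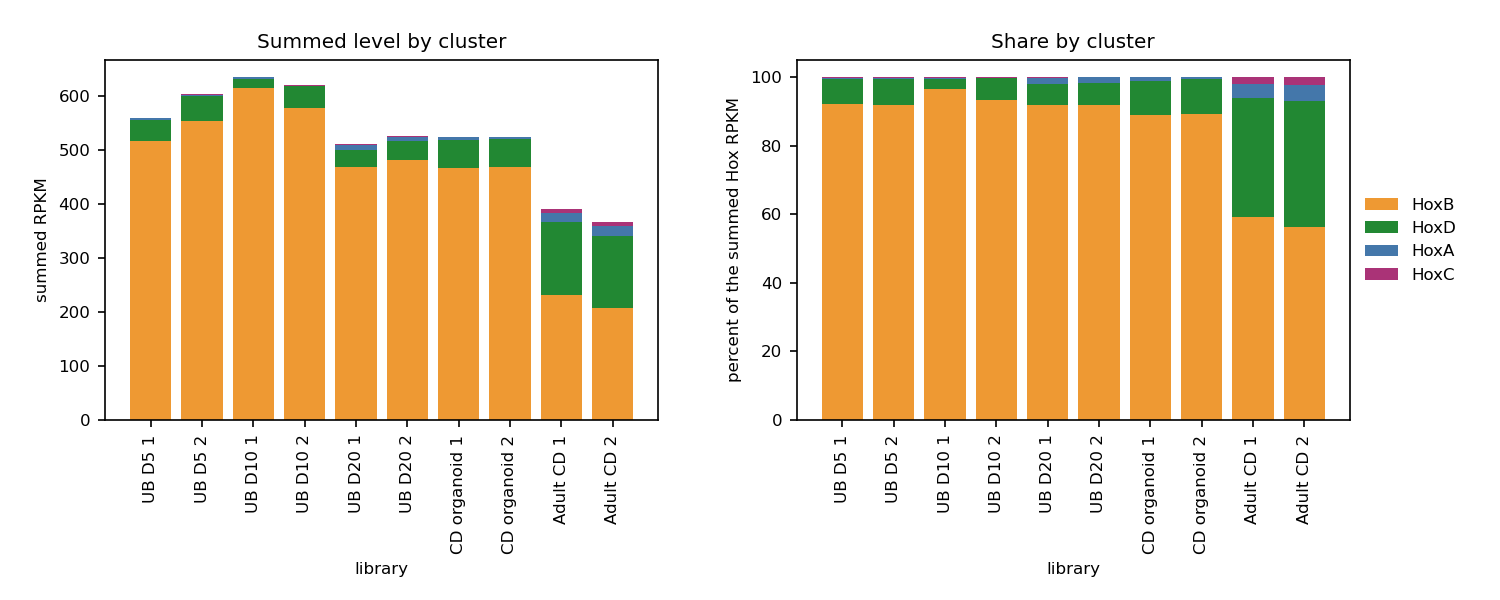
Summed RPKM of the *Hox* genes of each cluster in each library (left) and the share of each cluster in percent (right). HoxB holds 89.1% to 96.7% in the 8 organoid libraries and 59.2% and 56.4% in the 2 adult libraries, where HoxD holds 34.6% and 36.6%.

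The counts of all genes were tested gene by gene with the quasi-likelihood test of edgeR, and a gene was called at a Benjamini-Hochberg adjusted p of at most 0.01. Of the 39 genes, 33 had enough counts to be tested. Between D5 and D10, 3 were higher and 1 lower in D10, while over all 24410 genes tested 10.5% were higher and 11.8% lower. With library totals in place of TMM scaling the split was 5 higher and 1 lower. Between D10 and D20, 5 were higher and 4 lower in D20, against 8.76% and 9.93% of all genes. With library totals that split was 5 higher and 6 lower. In CD organoids 5 were higher and 4 lower than in D10, against 18.1% and 19.8% of all genes, and 6 were higher and 4 lower than in D20, against 16.8% and 17.1%. In adult cells 11 were higher and 7 lower than in CD organoids, against 21.6% and 18.6% of all genes.

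The share of members called was therefore near or below that of all genes between D5 and D10, between UB and CD organoids and for lower levels from D10 to D20, and above it for higher levels from D10 to D20 and from CD organoids to adult cells. The 9 calls from D10 to D20 became 4 without D20 replicate 1, 5 without D20 replicate 2 and 3 in a fit to the 4 D10 and D20 libraries alone, of which 1, 2 and 0 were higher. With a change of more than 4-fold also asked for, 1 member was called between D5 and D10 (3.41% of all genes), 5 between D10 and D20 (3.38%), 4 between D10 and CD organoids (10.7%), 4 between D20 and CD organoids (9.46%) and 11 between CD organoids and adult cells (14.3%). The median log2 fold change of the 33 members was 0.07, -0.06, -0.13, -0.27 and 1.07 in these 5 comparisons, beside 0.021, -0.099, -0.145, 0 and 0 over all genes. With genes that had no count in one group set to the bound that 3 counts over that group give, the members' medians were 0.07, -0.06, -0.06, -0.22 and 0.86. The comparisons share libraries (D10 enters 3 of them and CD organoids enter 3), so they are not independent of each other.

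**Figure D3:**
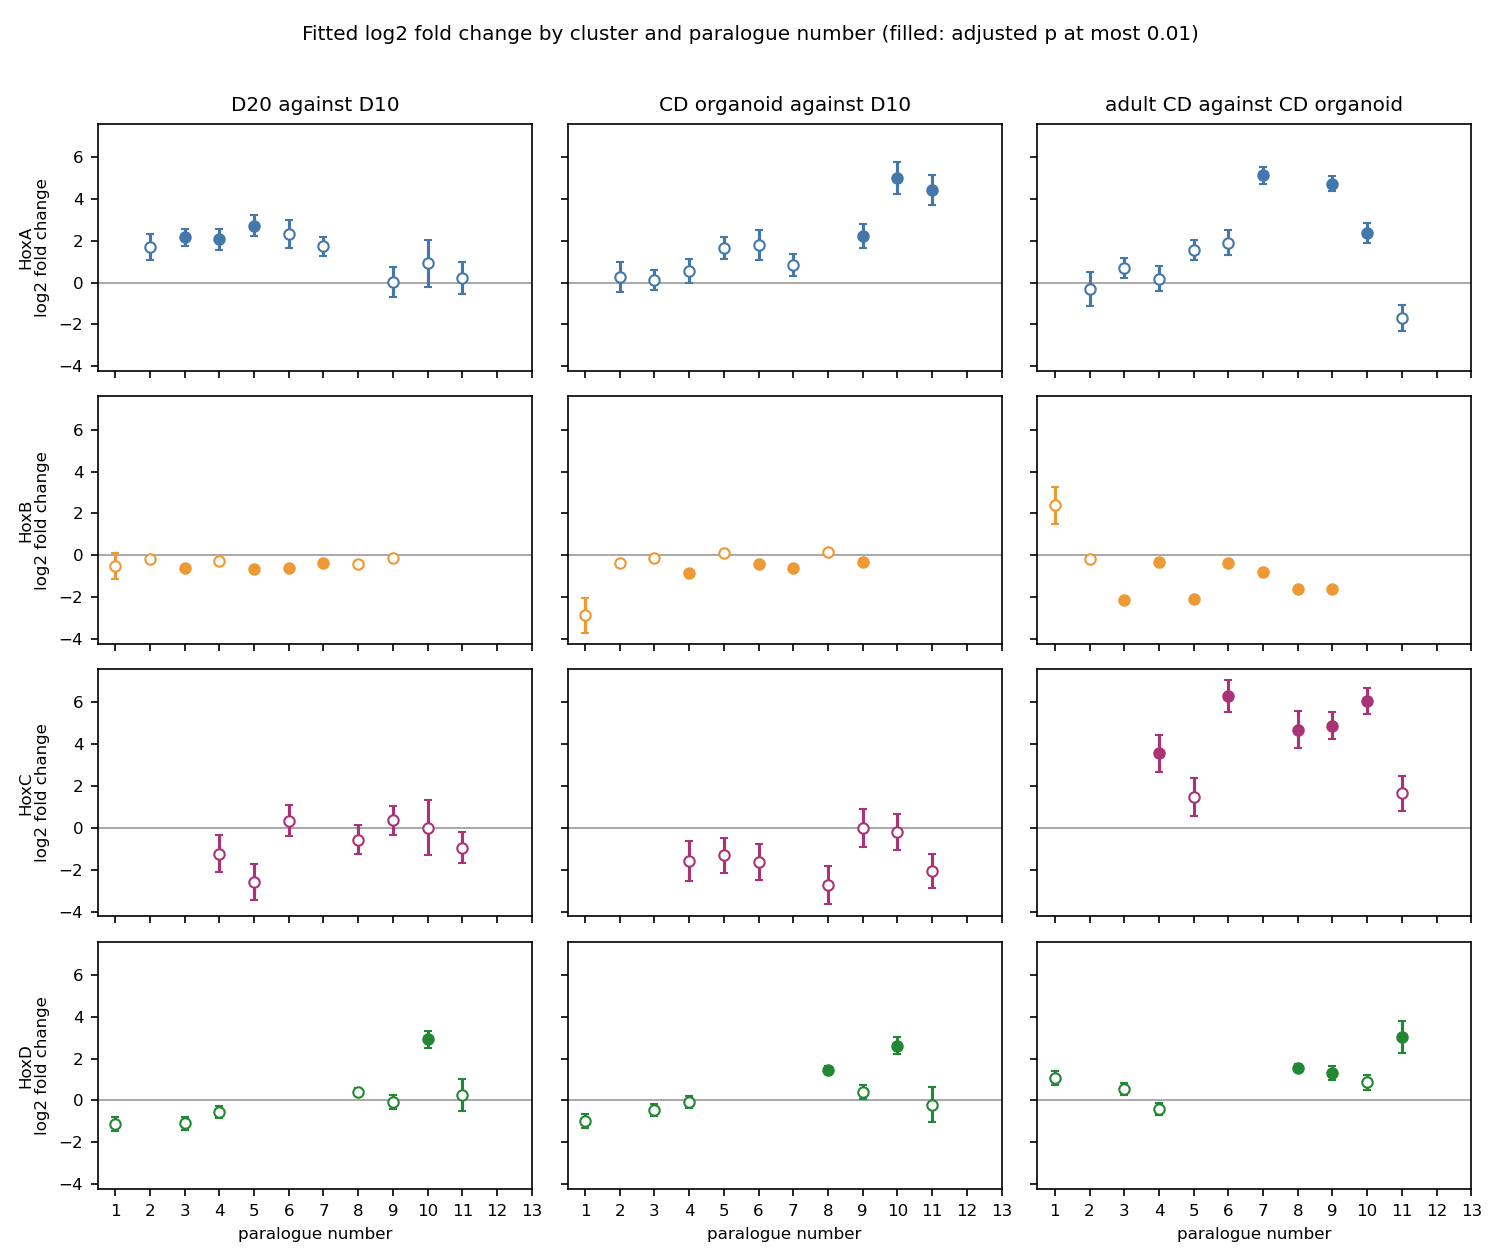
Fitted log2 fold change ± SE of the tested *Hox* genes against paralogue number, by cluster (rows), for D20 against D10, CD organoids against D10 and adult CD cells against CD organoids (columns), with filled points where the adjusted p was at most 0.01. The filled points in HoxA are at numbers 3, 4 and 5 in the first column, 9, 10 and 11 in the second, and 7, 9 and 10 in the third, while those in HoxB are all below 0 in these 3 columns.

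The HoxB genes were the abundant ones. *Hoxb9* (ENSMUSG00000020875.9) had 991 and 991 CPM in D5, 1030 and 915 in D10, 880 and 896 in D20, 769 and 760 in CD organoids, and 261 and 239 in adult cells. The adult libraries lay far below the others, with a log2 fold change against CD organoids of -1.61 ± 0.0796 (SE, adjusted p = 1.31e-09). CD organoids were lower than D10 by a log2 fold change of -0.34 ± 0.0771 (adjusted p = 0.00203), and this call was lost without D10 replicate 1, when the value was -0.24, and without either CD organoid library (-0.35 and -0.32).

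*Hoxb7* (chr11:96286623-96290162), whose promoter drives the sorted reporter, had 154 and 163 CPM in D5, 188 and 191 in D10, 145 and 151 in D20, 121 and 125 in CD organoids, and 71.6 and 68.2 in adult cells. It was thus lower in the cells chosen by a *Hoxb7* promoter than in any organoid library, with a log2 difference of -0.81 ± 0.0713 against CD organoids (adjusted p = 4.07e-07). Against D10, CD organoids were lower by a log2 fold change of -0.63 ± 0.0685 (adjusted p = 3.68e-06). Its smaller changes from D5 to D10 (0.26), from D10 to D20 (-0.36) and from D20 to CD organoids (-0.27) were called, but each call was lost when single libraries were left out, at values of 0.23 without D5 replicate 1, 0.31 without D5 replicate 2, 0.24 without D10 replicate 2, -0.31 and -0.39 without D20 replicate 1 or 2, and -0.24 to -0.30 without any one of the 4 libraries of the last comparison.

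*Hoxb6* and *Hoxb4* also had lower levels in CD organoids than in D10. *Hoxb6* had 241 and 273 CPM in D5, 311 and 319 in D10, 206 and 211 in D20, 234 and 242 in CD organoids, and 198 and 170 in adult cells. CD organoids were lower than D10 by a log2 fold change of -0.40 ± 0.0856 (adjusted p = 0.00134), and this call was lost without CD organoid replicate 1 (-0.38) or replicate 2 (-0.41). D20 was lower than D10 by a log2 fold change of -0.59 ± 0.0857 (adjusted p = 1.81e-04). *Hoxb4* had 138 to 172 CPM in the 6 UB organoid libraries, 93.3 and 95.3 in CD organoids, and 81.2 and 70.5 in adult cells. The step down of *Hoxb4* was between UB and CD organoids, with a log2 fold change of -0.84 ± 0.0840 against D10 (adjusted p = 1.63e-06) and -0.55 ± 0.0847 against D20 (adjusted p = 1.14e-04). From CD organoids to adult cells *Hoxb4* and *Hoxb6* changed by log2 fold changes of -0.31 and -0.37. Both calls were lost without either CD organoid library or without adult replicate 2 (-0.20 and -0.24 without the latter). The call of *Hoxb4* was also lost with RLE size factors in place of TMM scaling, with DESeq2 and with the replicate number as a block.

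*Hoxb3* and *Hoxb5* had another course, with D10 and CD organoids high and adult cells low. *Hoxb5* had 68.2 and 79.0 CPM in D5, 112 and 106 in D10, 68.1 and 71.6 in D20, 118 and 118 in CD organoids, and 30.1 and 25.8 in adult cells. No library of D10 or CD organoids overlapped with those of D5, D20 or adult cells. Its log2 fold changes were 0.56 ± 0.0866 from D5 to D10 (adjusted p = 2.28e-04), -0.64 ± 0.0879 from D10 to D20 (adjusted p = 1.25e-04), 0.76 ± 0.0892 from D20 to CD organoids (adjusted p = 9.01e-06) and -2.08 ± 0.0967 from CD organoids to adult cells (adjusted p = 7.49e-10). *Hoxb3* had 65.7 and 71.7, 110 and 116, 69.0 and 77.3, 103 and 104, and 24.4 and 22.0 CPM in the same order of groups, with log2 fold changes of 0.72, -0.63, 0.50 and -2.15 in these comparisons, all called. CD organoids were not called against D10 for either gene (log2 fold changes of 0.12 ± 0.0867 for *Hoxb5* and -0.13 ± 0.0805 for *Hoxb3*). Of the exon bases of *Hoxb3*, 52.9% are also covered by the opposite-strand gene *Hoxb3os*, which itself had at most 12.8 CPM.

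*Hoxb8* had 244 to 363 CPM in UB organoids, 372 and 355 in CD organoids, and 126 and 112 in adult cells. The fall to adult cells had a log2 fold change of -1.61 ± 0.109 (adjusted p = 3.13e-08), and the rise from D20 to CD organoids one of 0.55 ± 0.106 (adjusted p = 7.03e-04), which was no longer called without D20 replicate 1 or without CD organoid replicate 1 (0.52 in both cases). D10 was not called against D5 (0.24 ± 0.105, adjusted p = 0.101) or against D20. *Hoxb2* had 14.0 to 24.9 CPM in all libraries and was not called in any comparison. *Hoxb1*, at the low-number end of the cluster, had at most 10 counts in a library. Between CD organoids and adult cells, then, 7 of the 8 abundant HoxB genes fell, by amounts that ranged from a log2 fold change of -0.31 for *Hoxb4* to -2.15 for *Hoxb3*. With library totals in place of TMM scaling every log2 fold change of this comparison moves by -0.40. That shift deepens falls, so this alternative could not have turned them. The fall of *Hoxb4* was no longer called with RLE size factors or with DESeq2 (-0.26 in both).

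HoxD was led by *Hoxd8* and *Hoxd9*. *Hoxd8* (ENSMUSG00000027102.4, chr2:74704615-74707933) had 49.4 and 52.8 CPM in D5, 35.2 and 61.9 in D10, 62.9 and 67.5 in D20, 135 and 136 in CD organoids, and 398 and 407 in adult cells. Both steps exceeded the spread between libraries, with log2 fold changes of 1.48 ± 0.175 from D10 to CD organoids (adjusted p = 8.14e-06), 1.05 ± 0.175 from D20 to CD organoids (adjusted p = 2.09e-04) and 1.57 ± 0.171 from CD organoids to adult cells (adjusted p = 3.51e-06). In RPKM, *Hoxd8* stood behind at least 5 HoxB genes in every organoid group, while in adult cells it had the highest level of all 39 genes, 81.2 ± 1.17 RPKM (SD, n = 2), ahead of *Hoxb6* with 56.0 ± 6.12 and *Hoxb9* with 51.6 ± 3.29, which lay within each other's spread.

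*Hoxd9* had 46.8 and 54.7 CPM in D5, 13.4 and 42.3 in D10, 25.1 and 28.7 in D20, 35.7 and 37.8 in CD organoids, and 93.1 and 90.7 in adult cells. The 2 D10 libraries were far apart, and none of the comparisons among organoids was called. Against CD organoids, adult cells had a log2 fold change of 1.32 ± 0.330 (adjusted p = 0.00418). This call was lost without any one of the 4 libraries, at values between 1.27 and 1.38. It was also lost with library totals in place of TMM scaling and with DESeq2 (1.37).

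*Hoxd10* was higher in the D20 libraries than in those of D5 and D10. It had 0.598 and 0.857 CPM in D5, 0.277 and 1.39 in D10, 6.31 and 7.27 in D20, 5.70 and 5.29 in CD organoids, and 10.4 and 9.67 in adult cells. D20 was higher than D10 by a log2 fold change of 2.93 ± 0.398 (adjusted p = 1.15e-04), and CD organoids by 2.63 ± 0.408 (adjusted p = 1.03e-04), while CD organoids and D20 were not called apart (-0.30 ± 0.351). The call from D10 to D20 was lost in a fit to those 4 libraries alone. *Hoxd1*, at the other end of the cluster, fell early: it had 8.03 and 9.26 CPM in D5, 1.51 and 2.44 in D10, and 0.727 to 2.34 CPM in the other groups. Its log2 fold change from D5 to D10 was -2.10 ± 0.251 (adjusted p = 3.15e-05).

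*Hoxd3* and *Hoxd4* were between 3.70 and 12.1 CPM and between 12.2 and 27.1 CPM in all libraries and were not called, and they share 388 exon bases with each other. The same-strand gene *Gm28230* also covers 53.1% of the exon bases of *Hoxd3* and 39.1% of those of *Hoxd4*. *Hoxd11* had at most 5 counts in each organoid library and 9 and 17 counts in adult cells, a ratio to CD organoids of 13.3 (95% exact interval 3.32 to 115). Its call was lost without CD organoid replicate 1 (log2 fold change of 2.31) or adult replicate 2 (2.52). The call was also lost with library totals in place of TMM scaling (2.67) and with DESeq2 (3.75).

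**Figure D4:**
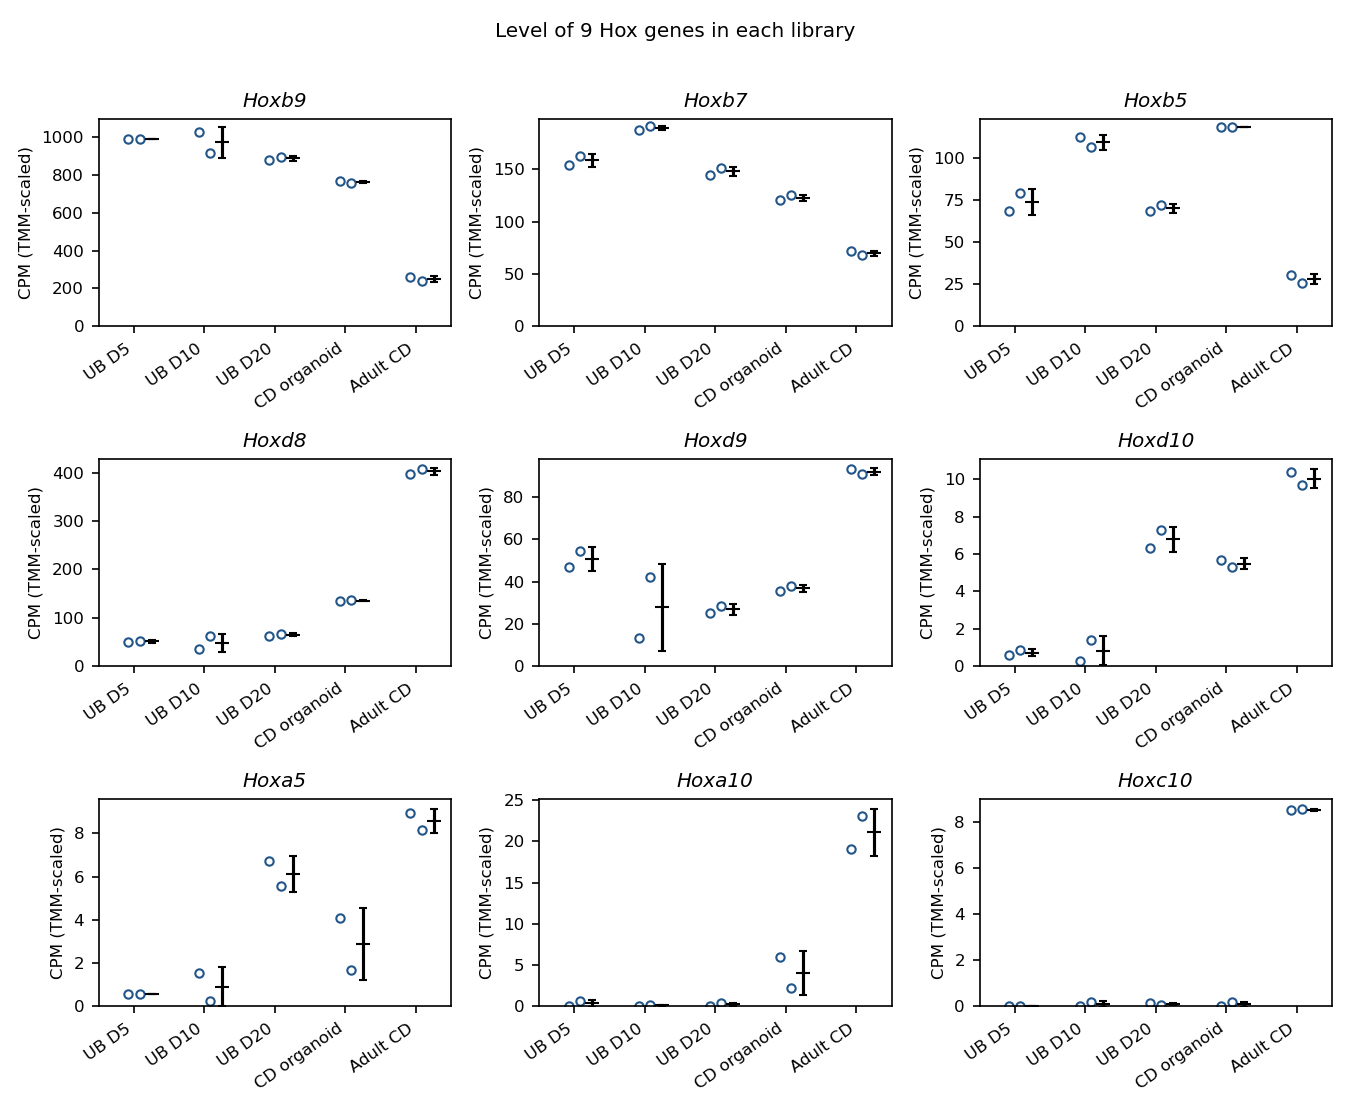
CPM of 9 *Hox* genes in each library (circles) with the mean and SD of each group (bars, n = 2), on linear axes that start at 0. *Hoxb9* and *Hoxb7* are lowest in adult cells, and *Hoxb5* is high in D10 and CD organoids. *Hoxd8* rises in CD organoids and again in adult cells, and *Hoxd10* rises in D20. *Hoxa10* is detected in both libraries of CD organoids and adult cells alone, with 0.653 CPM in D5 replicate 2, and *Hoxc10* in both libraries of adult cells alone.

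Promoters of 2 HoxD genes that were higher in CD organoids than in D10 are shown, each with 250 bases before and 50 bases after the start of the gene in RefSeq, on the plus strand (GRCm38.p6). Capitals mark the 6 bases of a nuclear receptor half-site, AGGTCA, searched on both strands.
Hoxd8 at chr2:74704365-74704664: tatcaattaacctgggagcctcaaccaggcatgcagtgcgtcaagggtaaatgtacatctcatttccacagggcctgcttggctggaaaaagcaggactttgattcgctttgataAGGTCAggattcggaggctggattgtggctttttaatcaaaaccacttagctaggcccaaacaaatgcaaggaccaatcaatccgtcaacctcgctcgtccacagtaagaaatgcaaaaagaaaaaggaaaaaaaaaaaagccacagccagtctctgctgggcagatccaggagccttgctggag
Hoxd10 at chr2:74691641-74691940: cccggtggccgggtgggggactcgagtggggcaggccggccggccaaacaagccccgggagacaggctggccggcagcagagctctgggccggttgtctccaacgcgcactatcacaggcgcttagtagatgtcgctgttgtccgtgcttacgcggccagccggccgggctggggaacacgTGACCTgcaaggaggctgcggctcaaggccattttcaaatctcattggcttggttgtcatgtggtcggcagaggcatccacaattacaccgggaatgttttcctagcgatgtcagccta
The half-site starts 135 bases before the start of *Hoxd8* and, on the other strand, 69 bases before that of *Hoxd10*. It is in 7 of the 24 *Hox* promoters in the table, which cover 22 of the 39 genes, and in 16.3% of all 32851 promoters. The match is a description of the letters in this window. The *Hoxd8* window holds 6 CG pairs and that of *Hoxd10* holds 22, beside a median of 14.5 in the *Hox* promoters and 7 in all promoters.

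HoxA was low in UB organoids, and different stretches of the cluster were higher in different groups. At the low-number end, *Hoxa5* (ENSMUSG00000038253.6) had 0.555 and 0.571 CPM in D5, 1.55 and 0.255 in D10, 6.73 and 5.55 in D20, 4.06 and 1.68 in CD organoids, and 8.97 and 8.17 in adult cells. *Hoxa3* had 3.24 and 1.88, 3.05 and 0.802, 9.10 and 8.26, 2.49 and 1.60, and 3.24 and 3.46 CPM in the same order. *Hoxa4* had 1.11 and 0.219 CPM in D10 and 3.28 and 2.58 CPM in D20. All 3 genes were higher in both D20 libraries than in any D5 or D10 library, and D10 replicate 2 was the lowest of these libraries for each.

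From D10 to D20 the log2 fold changes were 2.16 ± 0.422 for *Hoxa3* (adjusted p = 0.00178), 2.08 ± 0.506 for *Hoxa4* (adjusted p = 0.00733) and 2.72 ± 0.496 for *Hoxa5* (adjusted p = 0.00105). From D20 to CD organoids *Hoxa3* fell by a log2 fold change of -2.05 ± 0.453 (adjusted p = 0.00210). All 4 calls depended on single libraries. Without D20 replicate 1 the log2 fold changes from D10 to D20 were 2.11, 1.92 and 2.60 for *Hoxa3*, *Hoxa4* and *Hoxa5*, and none was called, and without D20 replicate 2 those of *Hoxa3* and *Hoxa4* were 2.22 and 2.24 and were not called either. *Hoxa4* was also lost without D10 replicate 2 (1.38) and with DESeq2 (2.19). The fall of *Hoxa3* from D20 to CD organoids was lost without any one of the 4 libraries, at -1.79 to -2.40.

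At the high-number end, *Hoxa10* (chr6:52231197-52240854) had 0 and 0.653 CPM in D5, 0.0396 and 0.109 in D10, 0.0607 and 0.330 in D20, 5.91 and 2.17 in CD organoids, and 19.1 and 23.1 in adult cells. CD organoids were higher than D10 by a log2 fold change of 4.99 ± 0.771 (adjusted p = 9.74e-05) and than D20 by 4.08 ± 0.785 (adjusted p = 7.15e-04), and adult cells were higher than CD organoids by 2.36 ± 0.480 (adjusted p = 9.71e-04). The call against D10 held without any single library, while that against D20 was lost without D20 replicate 1 (3.42) or CD organoid replicate 1 (3.19). That of adult cells was lost without CD organoid replicate 2 (1.84) or adult replicate 2 (2.24), and with DESeq2 (2.44).

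*Hoxa11* had 26 and 14 counts in CD organoids, against 0 and 1 in D10 and 1 and 0 in D20. The ratio of CD organoids to D10 was 79.4 (95% exact interval 13.5 to 3210) and that to D20 was 47.7 (8.08 to 1930). The call against D20 was lost without D20 replicate 2 (log2 fold change of 3.77) or CD organoid replicate 1 (3.80). Adult cells had 6 and 5 counts of *Hoxa11* and were not called against CD organoids (log2 fold change of -1.70 ± 0.632, adjusted p = 0.0388). It was thus the HoxA gene of highest number that was detected, and its values were highest in CD organoids, without a call against adult cells.

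*Hoxa9* had 16 and 8 counts in CD organoids, against 5 and 3 in D10, with a log2 fold change of 2.21 ± 0.567 (adjusted p = 0.00525) that was not called without D10 replicate 2 (1.92) or CD organoid replicate 1 (1.76). The large step of *Hoxa9* was to adult cells, which had 23.4 and 27.3 CPM against 1.14 and 0.642 in CD organoids and a log2 fold change of 4.73 ± 0.372 (adjusted p = 1.36e-07). *Hoxa7* had at most 1.03 CPM in the organoids, in a D20 library, and 16.7 and 18.4 CPM in adult cells, a log2 fold change of 5.12 ± 0.385 against CD organoids (adjusted p = 8.69e-08), and unlike *Hoxa9* it was not called in CD organoids against D10 (0.84 ± 0.545, adjusted p = 0.228). *Hoxa2* and *Hoxa6* were not called in any comparison, and *Hoxa2* was between 0.0729 and 2.12 CPM.

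Stromal markers were higher, like the HoxA genes 9 to 11, in CD organoids than in D10. The 6 stromal markers (*Foxd1*, *Pdgfra*, *Pdgfrb*, *Dcn*, *Col1a1* and *Col3a1*) summed to 9.18 and 29.0 CPM in D5, 24.9 and 18.9 in D10, 11.1 and 10.5 in D20, 238 and 125 in CD organoids, and 116 and 123 in adult cells, and 4 of the 6 were higher in CD organoids than in D10. From CD organoids to adult cells, where *Hoxa9* and *Hoxa10* rose, 2 of the 6 were higher and 2 lower, with a median log2 fold change of -0.82. CD organoid replicate 1 was above replicate 2 both in this sum and in *Hoxa9*, *Hoxa10* and *Hoxa11*. D5 replicate 2, with 6, 16 and 5 counts of these 3 genes, was above D5 replicate 1, which had none of them and no *Col3a1*. The D10 and D20 pairs did not share this order. D10 replicate 1, with the higher stromal sum, had 5, 1 and 0 counts of these genes, against 3, 3 and 1 in replicate 2. D20 replicate 1, with the slightly higher sum, had 2, 1 and 1 counts, against 3, 5 and 0 in replicate 2. The 6 markers of nephron progenitors and metanephric mesenchyme summed to 3.21 to 19.9 CPM in all libraries, with 3.63 and 3.21 CPM in CD organoids. The part of the stromal RNA in these values was not tested.

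HoxC was near the limit of detection in the organoids. In D5, *Hoxc4* had 24 and 22 counts and *Hoxc5* had 20 and 17, against 3 and 0 and 2 and 0 in CD organoids, and no HoxC gene was called among the organoid groups. In adult cells, *Hoxc10* (ENSMUSG00000022484.7, chr15:102966796-102971893) had 113 and 109 counts, or 8.52 and 8.57 CPM, against 0 and 2 counts in CD organoids, a ratio of 113 (95% exact interval 31.0 to 941). *Hoxc6* had 53 and 56 counts against none, at least 37.1-fold higher, and *Hoxc8* had 17 and 18 against none, at least 11.9-fold higher, where 3 counts over both CD organoid libraries set the bound. *Hoxc9* had 30 and 39 counts against 1 and 0, a ratio of 70.4 (12.2 to 2820).

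These 4 genes were above all 8 organoid libraries in both adult libraries, with adjusted p of 4.04e-06 for *Hoxc10*, 2.43e-05 for *Hoxc6*, 6.41e-04 for *Hoxc8* and 2.61e-05 for *Hoxc9*, and no call was lost without a single library. *Hoxc4* had 18 and 32 counts in adult cells, a ratio of 17.0 (5.49 to 85.2) to CD organoids, and its call was lost without CD organoid replicate 1 (log2 fold change of 5.23), CD organoid replicate 2 (2.91) or adult replicate 2 (3.11). *Hoxc5* and *Hoxc11* were not called. *Hoxc10* and *Hoxc5* share 166 exon bases on the same strand. The rise of HoxC and of *Hoxa7*, *Hoxa9* and *Hoxd8*, and the fall of HoxB, went with the tubule, endothelial, urothelial and podocyte markers of the adult libraries given above, whose part in these values was not tested.

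The 2 D10 libraries differed more in the HoxA and HoxD genes than those of any other UB group. The HoxA genes summed to 3.01 RPKM in replicate 1 and 0.509 in replicate 2, and the HoxD genes to 17.1 and 40.3 RPKM, so that the library with more HoxA had less HoxD. HoxB summed to 614 and 578 RPKM in the same libraries. Without D10 replicate 1 the number of members called was 9 between D5 and D10, 16 between D10 and D20 and 14 between D10 and CD organoids, against 4, 9 and 9 with all libraries. Without D10 replicate 2, 7 were called between D5 and D10.

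The cofactors through which Hox proteins bind DNA were expressed in all groups. Of the 9 cofactors, all tested, 1 was higher and 4 lower in D10 than in D5, 1 higher and 2 lower in D20 than in D10, 1 higher and 4 lower in CD organoids than in D10, 2 higher and 2 lower than in D20, and 1 higher and 4 lower in adult cells than in CD organoids. Of all genes, 10.5% were higher and 11.8% lower in the first of these comparisons, 8.76% and 9.93% in the second, 18.1% and 19.8% in the third, 16.8% and 17.1% in the fourth, and 21.6% and 18.6% in the last. *Meis2* had 17.4 and 15.0 CPM in D5, 1.21 to 3.17 in the other organoid libraries, and 66.4 and 58.8 in adult cells, with log2 fold changes of -2.77 ± 0.237 from D5 to D10 (adjusted p = 1.97e-06) and 4.69 ± 0.258 from CD organoids to adult cells (adjusted p = 3.81e-09). *Meis3* was highest in CD organoids, with 7.05 and 6.50 CPM against 0.728 and 0.727 in D20 and 0.904 and 0.864 in adult cells, and *Pknox2*, which did not exceed 1.92 CPM, fell from D5 to D10 by a log2 fold change of -2.14 ± 0.443 (adjusted p = 0.00207).

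Among 23 regulators of *Hox* genes (*Cdx* genes, Polycomb and Trithorax members, H3K27 demethylases and *Ctcf*), 20 were tested, and the 3 *Cdx* genes, which act upstream of *Hox* genes in the trunk of the embryo, had at most 0.151 CPM. In CD organoids 4 were higher and 11 lower than in D10, with a median log2 fold change of -0.42 beside -0.145 over all genes. *Cbx2*, a Polycomb subunit, had 80.7 and 82.5 CPM in D10, 35.9 and 34.2 in D20, 13.6 and 13.2 in CD organoids, and 4.82 and 3.85 in adult cells, with a log2 fold change of -2.60 ± 0.0952 from D10 to CD organoids (adjusted p = 9.77e-11). The other comparisons had 1 higher and 9 lower (D10 against D5), 2 and 4 (D20 against D10), 4 and 9 (CD organoids against D20), and 3 and 7 (adult cells against CD organoids), beside the shares of all genes given for the cofactors.

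Of 8 readouts of retinoic acid signalling, which sets *Hox* borders in the embryo, 7 were tested. They were called 2 higher and 2 lower from D5 to D10, 0 and 5 from D10 to D20, 0 and 3 from D10 to CD organoids, 3 and 2 from D20 to CD organoids, and 0 and 3 from CD organoids to adult cells, beside the same shares of all genes as for the cofactors. *Cyp26b1*, a retinoic acid degrading enzyme, had 209 and 290 CPM in D5, 1010 and 643 in D10, 87.4 and 90.7 in D20, 51.5 and 98.8 in CD organoids, and 17.4 and 16.3 in adult cells. *Stra6*, a membrane receptor for retinol uptake, had 272 to 802 CPM in UB organoids, 5.20 and 4.97 in CD organoids, and 3.32 and 1.41 in adult cells, with a log2 fold change of -7.27 ± 0.176 from D10 to CD organoids (adjusted p = 3.46e-12). Other readouts were higher in CD organoids than in D20: *Dhrs3*, a retinaldehyde reductase, had 336 and 282 CPM in D10, 212 and 242 in D20, and 281 and 340 in CD organoids, and the receptor genes *Rara* and *Rarg* had log2 fold changes of 0.98 ± 0.149 (adjusted p = 9.13e-05) and 0.89 ± 0.147 (adjusted p = 1.92e-04). The receptor gene *Rarb* went the other way. Its log2 fold change in CD organoids was -1.42 ± 0.139 against D20 (adjusted p = 1.54e-06) and -1.86 ± 0.135 against D10 (adjusted p = 6.37e-08).

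*Evx1*, a homeobox gene next to the high-number end of HoxA, had 13 and 22 counts in D20, 0 and 2 in D10, and none in D5, CD organoids or adult cells. The ratio of D20 to D10 was 29.1 (95% exact interval 7.49 to 250), and D20 was at least 9.79-fold higher than CD organoids. In D20, its neighbours *Hoxa11* and *Hoxa13* had at most 1 count in a library.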

How the data were processed

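The deposited table gives, for 10 libraries and 39273 genes, whole-number counts, RPKM values and TMM-scaled values (a signal). Per the study's methods, the authors aligned reads to mm10 with STAR in Partek Flow and assigned them to GENCODE M24 by the E/M method of Partek, while the submitters' processing notes also name FastQC 0.11.8, cutadapt 2.5, Trimmomatic 0.36 and edgeR 3.28.1. Whether the counting used strand is not given in the sources used here; the methods name a stranded KAPA kit and the labels an Illumina TruSeq kit. In GENCODE M21, 16 of the 39 *Hox* genes share exon bases with another gene, 10 of them on the opposite strand, and their values are uncertain to that extent. The deposited RPKM differed by at most 4.38% from those recomputed from the deposited counts, and the latter were used.

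Genes with at least 10 counts in all (24410) were tested with edgeR 4.0.16 in R 4.3.3 (quasi-likelihood test, TMM factors of 0.792 to 1.12, prior count 1), in one fit of 5 group means to all 10 libraries, with a common dispersion of 0.00831. The SE is the log2 fold change over the root of F. Ratios with 1 to 3 counts in the lower group have exact binomial intervals. The fit was tested on simulated data. Samples with the same replicate number did not deviate together over all genes, so no pairing was used. A weak pairing, or one within some groups only, would not show in this check. Replicates of each group differed beyond sampling noise. Named are the 3 members of highest RPKM in each cluster, those called with more than 4-fold change and more than 3 counts in both libraries of a group, *Hoxb7*, the member of highest number detected in each group, and list members called with more than 4-fold change; other genes were named after their values were seen. Some items that the rule names are not reported here. Members and lists were chosen with earlier results of these data known. Alternatives changed the threshold, filter, scaling, prior count, libraries in the fit, replicate block and tool (DESeq2 1.42.0).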

Additional observations from a re-analysis of the deposited data

How the results depend on the processing

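Of the 50 member changes called, none turned direction in 599 alternative values, 28 were called under every alternative and 75 values fell short of the threshold. The number of members called (4 in D10 against D5, 9 in D20 against D10, 9 in CD organoids against D10, 10 in CD organoids against D20, 18 in adult cells against CD organoids) was 1, 5, 4, 4 and 11 with more than 4-fold change asked for. At an adjusted p of at most 0.05 it was 16 in D20 against D10 and 14 in CD organoids against D10. With no filter on low counts it was 19, 14 and 16 in D20 against D10, CD organoids against D10 and CD organoids against D20. A fit to the 4 libraries compared gave 3 in D20 against D10 and 19 in CD organoids against D20. The cause of these shifts was not tested. Leaving out one library gave 3 to 9, 4 to 16, 6 to 14, 4 to 7 and 12 to 17 in the 5 comparisons, where a group left with 1 library is assumed to vary like the others. With the replicate number as a block the counts were 3, 10, 10, 11 and 18. The correlations of same-numbered samples, between -0.0753 and 0.0961 over 10 pairs of groups, gave no ground for the block, though a weak pairing would not show. Members with few counts, in HoxA and HoxC above all, are limited by depth.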

Other observations

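Long non-coding RNA genes of the *Hox* clusters, named after their values were seen, were not among the 39 genes. *Hoxb5os* had 26.3 to 28.6 CPM in D5 and D10, 14.9 and 16.1 in D20, 20.1 and 19.7 in CD organoids, and 22.3 and 25.1 in adult cells, where *Hoxb5* itself was lowest. *Hoxb3os* had 10.7 and 12.8 CPM in CD organoids and 2.49 and 2.28 in adult cells. *Hotairm1*, in HoxA, had 2.37 and 3.24 CPM in D20 and 0.146 to 1.21 CPM in the other libraries. *Hottip*, next to *Hoxa13*, had no count in any library, and *Hotair*, in HoxC, had 1 count in all. No test was made on these values.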
